A study of Mus musculus with 6 samples.

Results

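The genes examined here are 38 genes of DNA replication and S phase entry, 38 of 21887 protein-coding genes, chosen by name. They cover origin recognition and licensing, the MCM helicase, the factors that activate it, the sliding clamp with its loader, polymerases with fragment joining, nucleotide supply, S phase entry and the copying of chromatin. For each, every peak of the transcription factor Eomes whose deposited gene symbol was that gene was collected and described by position, height and the number of experiments that held it. NK cells (natural killer cells) came from the pooled spleens of C57BL/6 mice, wild type and 8 to 12 weeks old. They were cultured with IL-15, a cytokine on which their survival and division depend, at 100 ng/mL over 4 days. Chromatin was immunoprecipitated with an anti-Eomes antibody (ChIP-seq) in 3 separate experiments. Each gave 1 IP library (immunoprecipitated DNA) and 1 input library (DNA without that step), and both come from the same cells, so no untreated, Eomes-deficient or resting cells stand beside them. Animals were pooled, so the spread between experiments does not measure the spread between mice. Peak lists hold no expression values, so the identity of the cells could not be checked against marker genes, nor could the activity of these genes.

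DNA is copied once in each cell cycle. In G1, the origin recognition complex, CDC6 and CDT1 load the ring of MCM2 to MCM7 onto DNA, and in S phase CDC45 and the GINS complex turn it into a running helicase. PCNA, a ring loaded by the RFC complex, then holds the polymerases on DNA. E2F factors with cyclin E switch on most of these genes at the start of S phase, and NK cells enter the cycle when IL-15 drives their expansion. Eomes is a T-box factor that NK cells need for their maturation, and its family binds DNA through a core of the letters GGTGTG.

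The experiments gave lists of 37456, 33841 and 46329 peaks. Fold enrichment is the ratio of IP to background, and pileup is read as the number of IP fragments at the summit. Both are the authors' values for a peak. Median pileup over all peaks was 12, 11 and 14 in experiments 1, 2 and 3, and no peak had a pileup below 8, 7 and 9, so weaker binding was not detectable. The sources used here do not state how deeply each library was sequenced. Peaks sharing at least 1 bp were merged to 84399 regions, and the 20126 regions with peaks of at least 2 experiments are called reproducible below.

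Reproducible Eomes regions were assigned to most of the replication genes, and each of those genes had at least 1 at a promoter. A reproducible region was assigned to 31 of the 38 genes (81.6%, 95% Wilson interval 66.6 to 90.8%), against 43.6% of all protein-coding genes. All 31 had such a region in the promoter class, which reaches 3000 bp from an annotated transcript start, against 37.2% of all genes. In 25 of the 38 a region was found in all 3 experiments, against 28.8%. A reproducible region outside the promoter class was assigned to 4 of the 38, against 15.1%. All 38 genes lie on autosomes, where 45.7% of genes had a reproducible region and 38.9% a reproducible promoter region. The Wilson interval covers counting error over genes only.

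Single experiments gave the same picture. In experiments 1, 2 and 3, 32, 34 and 31 of the 38 genes had an assigned peak, a mean of 85.1 ± 4.02% (SD, n = 3). The shares of all protein-coding genes were 54.1%, 54.0% and 60.1%. A promoter peak was assigned to 32, 33 and 30 of the genes, against 40.0%, 41.8% and 48.5% of all genes. The count for the replication genes was lowest in experiment 3, which had the longest list and the highest share of all genes with a peak. In any experiment, 36 of the 38 had a peak, against 71.2% of all genes. Orc6, a subunit of the origin recognition complex, and Cdc45, part of the running helicase, had none.

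**Figure D1:**
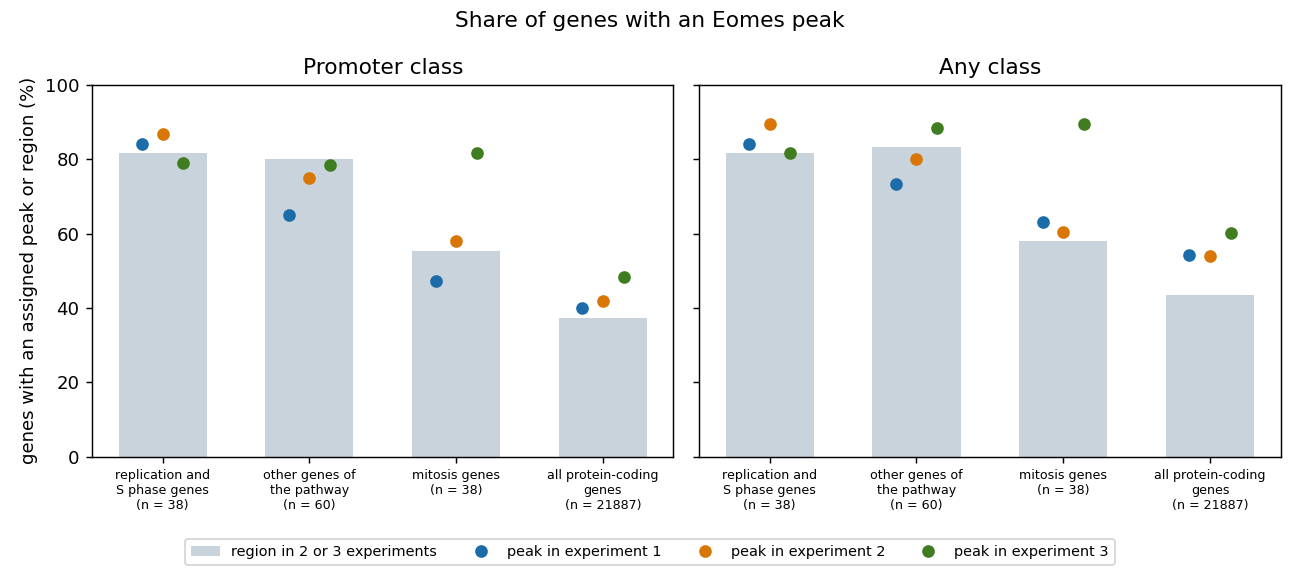
Share of genes with an assigned Eomes peak (y axis, %) for the 38 replication and S phase genes, 60 other genes of the pathway, 38 mitosis genes and 21887 protein-coding genes, for peaks of the promoter class (left) and of any class (right). Bars give genes with a region in at least 2 experiments (81.6% of the replication genes and 43.6% of all genes for any class) and points give each experiment, which for the replication genes lie between 81.6% and 89.5% in the right panel.

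The binding was compact. The 31 genes held 44 reproducible regions, and 22 genes had exactly 1, 6 had 2 and 3 had more. Of the 44 regions, 40 were in the promoter class (90.9%, Wilson 78.8 to 96.4%), against 59.1% of all 20126 reproducible regions. Of the others, 3 lay in introns and 1 in intergenic sequence. The region covered the transcript start it was annotated to in 31 of 44 (70.5%), against 32.7% of all reproducible regions, and lay within 1000 bp of it in 36 (81.8%), against 50.9%. A further 75 regions of these genes, of 119 in all, were seen in 1 experiment only. Thus 44 of their 119 regions were reproducible, against 20126 of all 84399 merged regions.

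**Figure D2:**
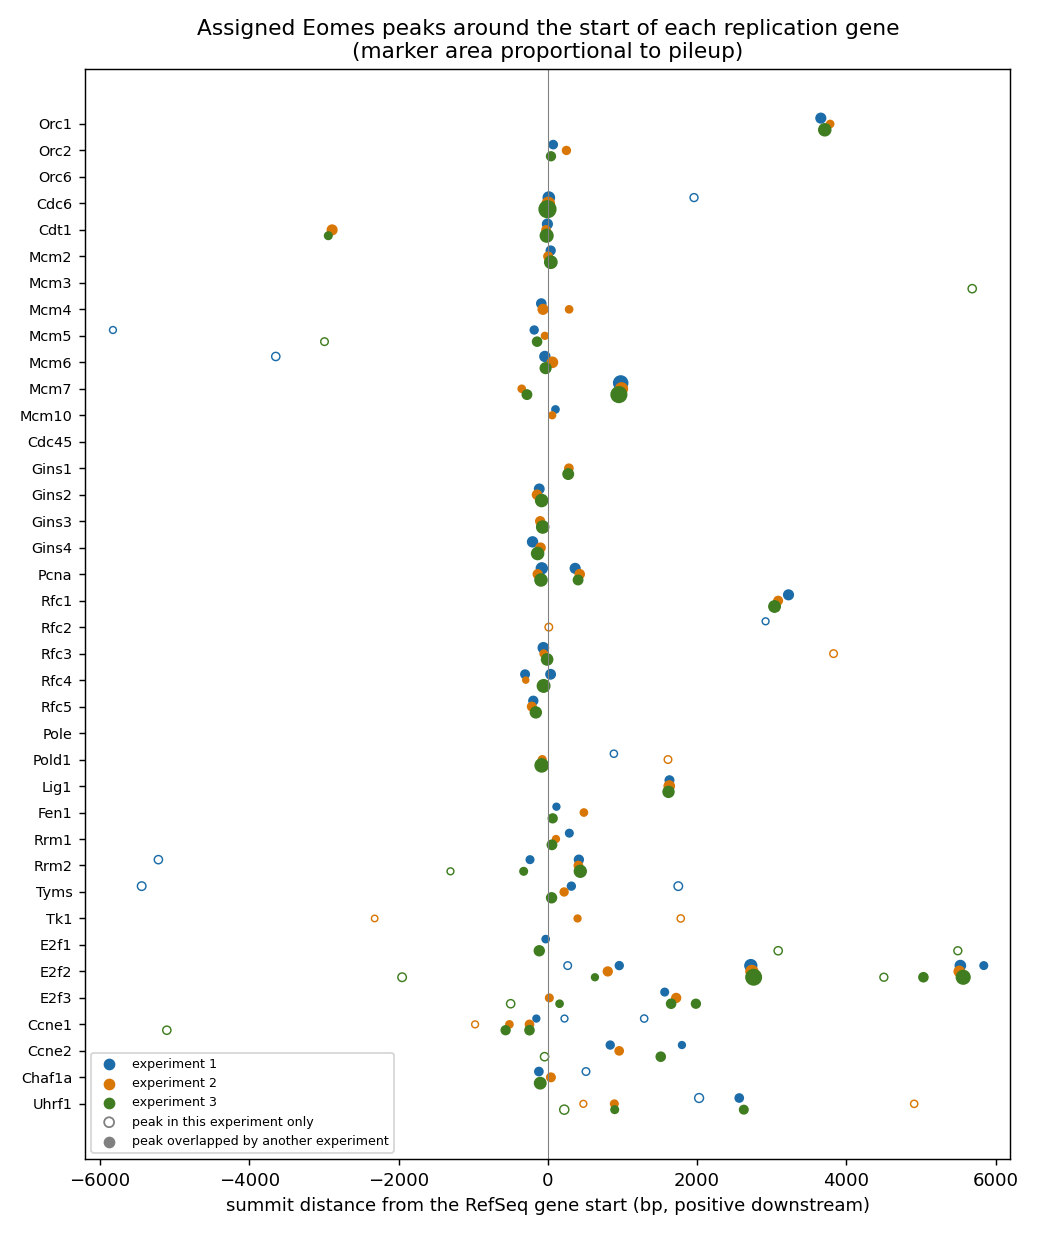
Summits of the assigned Eomes peaks within 6000 bp of the RefSeq gene start (x axis, bp, positive downstream) for each of the 38 genes (rows). Colour gives the experiment and marker area the pileup, filled markers overlap a peak of another experiment, and most filled markers stack close to 0. The rows of Orc1 and Rfc1 carry theirs at an inner transcript start, those of Orc6 and Cdc45 are empty, and peaks farther away are not drawn.

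Folds at these promoters were close to those at other promoters. Among promoter peaks assigned to the replication genes, the median fold was 4.26, 4.84 and 4.48 in experiments 1, 2 and 3, against 4.23, 4.74 and 4.20 over all genes. Another experiment overlapped 73.5%, 78.4% and 76.9% of them, against 65.5%, 67.6% and 57.3% of promoter peaks of all genes. The leading region of a gene is taken as the reproducible region found in the most experiments and, among those, with the highest mean fold. For the 25 genes with a leading region in all 3 experiments, its mean fold ran from 3.44 to 10.4, with a median of 5.46. The 6298 protein-coding genes with such a region had a median of 5.88 and quartiles of 4.85 and 7.58. Of the 25, 14 lay below that median, 5 (Fen1, Rrm1, Mcm5, Tyms and Gins4) among the lowest 10% of those genes and 1 (Mcm7) among the highest 10%. The leading region was a promoter in 24 of the 25, against 76.6% of those genes. With the peak of the best q-value taken in each experiment, its pileup was highest in experiment 3 in 24 of 25. At E2f3, experiments 2 and 3 tied at 15 by this choice, while a second peak of experiment 3 in the region had 16. The fold of the leading region was highest in experiment 3 in 15, in experiment 2 in 7 and in experiment 1 in 3.

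**Figure D3:**
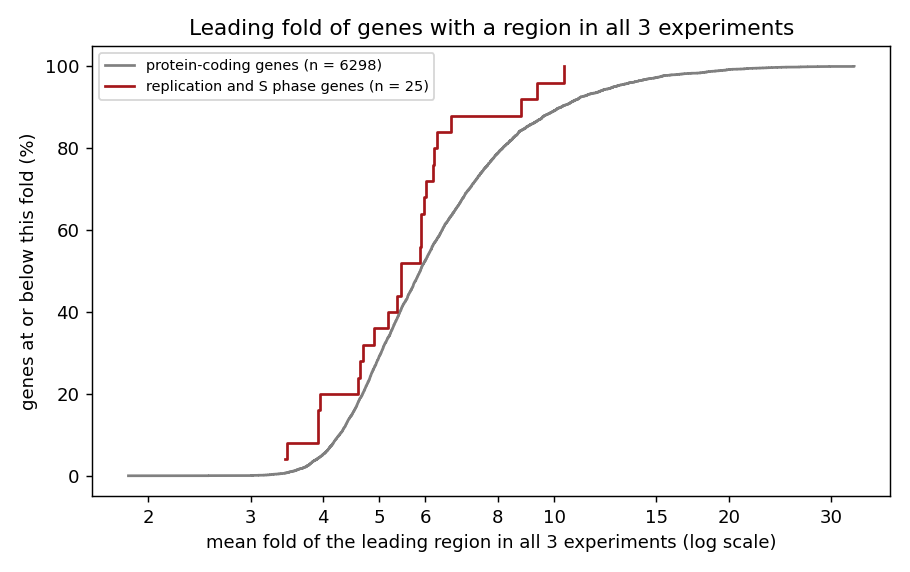
Cumulative share of genes (y axis, %) by the mean fold of their leading region (x axis, log scale) for genes with a region in all 3 experiments. The line of the 25 replication genes lies close to or above that of 6298 protein-coding genes over nearly its whole length and ends at 10.4, while the other line reaches 32.9.

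The promoters were read for sequence features that the peak calls did not use. RefSeq windows of GRCm38.p6 (the assembly behind mm10), from 250 bases before to 50 after a transcript start, were found for 31 of the 38 genes, and the window nearest the gene start was counted. A reproducible region overlapped 25 of the 31 windows (80.6%), against 33.3% of 17492 windows of all protein-coding genes. Shown here are windows at bound starts (Orc1, Mcm2, Mcm6, Mcm7 and Rfc3), at a start whose region carries a neighbour's symbol (Orc6) and at one with no peak (Mcm3). They are written 5′ to 3′ on the gene's strand. Capitals mark GGTGTG, the E2F letters TTTCCCGC, TTTCGCGC or TTTGGCGC, and CCAAT, each on either strand. The Orc1 window is chr4:108579204-108579503 (+), Mcm2 is chr6:88898731-88899030 (−) and Mcm6 is chr1:128359656-128359955 (−). The Mcm7 window, at the inner start under its leading region, is chr5:138171217-138171516 (−). Rfc3 is chr5:151651159-151651458 (−), Orc6 is chr8:85299382-85299681 (+) and Mcm3 is chr1:20820263-20820562 (−).
Orc1: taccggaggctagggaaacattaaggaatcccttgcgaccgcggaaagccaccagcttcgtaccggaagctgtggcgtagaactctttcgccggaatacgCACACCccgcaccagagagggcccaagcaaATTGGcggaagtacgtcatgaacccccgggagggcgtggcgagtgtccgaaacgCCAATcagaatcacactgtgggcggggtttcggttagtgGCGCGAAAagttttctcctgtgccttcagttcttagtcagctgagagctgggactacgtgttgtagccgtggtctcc
Mcm2: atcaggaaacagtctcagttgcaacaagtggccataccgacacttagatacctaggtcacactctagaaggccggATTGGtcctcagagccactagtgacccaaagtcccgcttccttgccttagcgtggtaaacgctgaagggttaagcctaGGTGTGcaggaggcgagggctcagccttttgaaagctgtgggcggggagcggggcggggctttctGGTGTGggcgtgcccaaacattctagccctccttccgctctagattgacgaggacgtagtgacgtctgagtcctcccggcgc
Mcm6: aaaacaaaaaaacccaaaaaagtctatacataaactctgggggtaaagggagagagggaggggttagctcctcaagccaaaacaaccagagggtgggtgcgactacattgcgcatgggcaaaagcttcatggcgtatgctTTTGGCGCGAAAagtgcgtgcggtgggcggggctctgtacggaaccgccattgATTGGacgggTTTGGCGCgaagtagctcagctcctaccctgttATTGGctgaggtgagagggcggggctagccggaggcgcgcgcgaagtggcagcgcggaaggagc
Mcm7: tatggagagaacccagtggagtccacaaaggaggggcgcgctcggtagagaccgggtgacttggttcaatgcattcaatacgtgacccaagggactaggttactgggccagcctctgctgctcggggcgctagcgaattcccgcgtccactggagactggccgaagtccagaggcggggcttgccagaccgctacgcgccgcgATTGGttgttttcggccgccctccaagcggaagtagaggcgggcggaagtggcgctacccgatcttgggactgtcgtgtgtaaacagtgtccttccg
Rfc3: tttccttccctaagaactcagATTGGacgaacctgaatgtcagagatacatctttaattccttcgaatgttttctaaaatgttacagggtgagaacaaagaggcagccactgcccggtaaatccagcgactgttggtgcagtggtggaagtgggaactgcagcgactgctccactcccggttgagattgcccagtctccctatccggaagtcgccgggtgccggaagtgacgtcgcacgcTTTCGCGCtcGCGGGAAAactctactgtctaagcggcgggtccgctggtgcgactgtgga
Orc6: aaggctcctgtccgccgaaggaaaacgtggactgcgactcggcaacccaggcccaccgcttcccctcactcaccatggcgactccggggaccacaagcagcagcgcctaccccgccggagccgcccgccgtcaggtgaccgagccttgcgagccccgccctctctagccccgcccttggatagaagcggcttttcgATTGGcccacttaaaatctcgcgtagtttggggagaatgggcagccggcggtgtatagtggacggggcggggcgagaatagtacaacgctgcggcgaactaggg
Mcm3: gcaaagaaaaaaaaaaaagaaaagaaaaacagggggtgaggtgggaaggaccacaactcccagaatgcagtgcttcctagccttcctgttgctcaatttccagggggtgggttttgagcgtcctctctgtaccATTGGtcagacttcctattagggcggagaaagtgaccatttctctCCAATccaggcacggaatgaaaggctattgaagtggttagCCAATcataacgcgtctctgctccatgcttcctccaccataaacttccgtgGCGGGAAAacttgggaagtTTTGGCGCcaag

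E2F octamers were frequent in these windows. At least 1 of the E2F octamers stood in 12 of 31 windows (38.7%, Wilson 23.7 to 56.2%), against 2.49% of all 17492 windows. The 12 genes were Orc1, Cdc6, Cdt1, Mcm3, Mcm5, Mcm6, Mcm7 (in the window at its gene start), Gins3, Rfc3, Pold1, E2f2 and E2f3. The T-box core GGTGTG stood in 6 of 31 (19.4%), against 18.4% of all windows, and the longer AGGTGTGA in 0 of 31 (Wilson upper bound 11.0%), against 1.17%. CCAAT, the letters bound by NF-Y, stood in 20 (64.5% against 39.2%), and GGGCGG, bound by SP1, in 22 (71.0% against 46.3%). TTTGAA, part of the element found in genes of the later cell cycle, stood in 5 (16.1% against 16.5%). TTTCGCGC and TTTGGCGC can share bases on opposite strands, as at Mcm6, where they start at positions −106 and −110 from the transcript start. A match is a description of letters and not a binding site.

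In the printed windows, Mcm2 holds the T-box core at positions −97 and −32 and no E2F octamer. Orc1 holds a core at −150 and an E2F octamer at −27, both on the other strand. Mcm6 holds E2F octamers and no core, and so does Rfc3. Orc6 holds neither, and neither does the inner Mcm7 window, under the region with the highest mean fold of the 38 genes. The Mcm3 window, which no reproducible region overlapped, holds 2 E2F octamers and 3 CCAAT. Over the 31 windows, the core stood in 5 of 25 that a reproducible region overlapped and in 1 of 6 others. The E2F octamers stood in 9 of 25 and 3 of 6. This does not split bound from unbound genes. Of the 6, Cdc6, Lig1, E2f1, E2f2 and Uhrf1 had a reproducible promoter region outside the window, and only Mcm3 had none. Over all genes, the core stood in 17.4% of overlapped windows and 18.8% of others, and E2F octamers in 4.66% and 1.41%.

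The windows were also rich in CpG. The ratio of observed to expected CpG had a median of 0.875 over the 31 windows, against 0.577 over all windows, while the median GC content was 57.3% against 56.3%. A ratio of at least 0.6 was found in 24 of 31 (77.4%), against 48.4%. Among all protein-coding genes, 60.7% of those with such a window had a reproducible promoter region, and 16.3% of those with another window. Of the replication genes, 22 of 24 with such a window had one, and 5 of 7 with another window. Of the 7 with no window in the table, 4 had one. The part of CpG content in the high share of bound replication genes was not tested.

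Among the licensing genes, Cdc6 carried the strongest region. CDC6 is the loader that brings the MCM ring to the origin. Its region at chr11:98907568-98907886 (mm10) covered the annotated start, with folds of 7.51, 8.57 and 10.2 in experiments 1, 2 and 3 and pileups of 24, 28 and 54 (fold 8.77 ± 1.38, SD, n = 3). All 3 folds were above the 5.88 median of protein-coding genes, and the summits lay within 18 bp of each other. Cdt1, the partner of CDC6 in loading, had a region over its start in all 3 experiments with folds of 3.85, 5.38 and 8.83. It had another region in experiments 2 and 3 upstream, at −2750 bp from the start. Orc1, which binds ATP in the recognition complex and whose window is printed above, had folds of 4.81, 4.25 and 6.45 at chr4:108579166-108579835, a transcript start inside the gene model. The region of Orc2, at chr1:58504768-58505192, was the weakest of the role, with folds of 4.72, 5.60 and 3.56 and pileups of 13, 12 and 15 (4.62 ± 1.02).

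The MCM genes ranged from the strongest region of all 38 genes to none. The 6 proteins form 1 ring. Mcm7 led at chr5:138170896-138171457, with folds of 7.19, 10.8 and 13.3 and pileups of 38, 27 and 47 (10.4 ± 3.06, SD, n = 3). Its summits lay 35 bp apart at most, at a transcript start inside the gene model. A weaker Mcm7 region at chr5:138172256-138172557 was found in experiments 2 and 3 with folds of 3.78 and 5.41. The region over the RefSeq start of Mcm7, chr5:138171878-138172183, carried the symbol of the neighbour Ap4m1. It was found in experiments 1 and 3 with folds of 4.05 and 4.22. Mcm2, with the T-box core in its printed window, had 5.44, 4.43 and 8.66 at its start. Mcm6, with E2F octamers and no core, had 4.05, 8.11 and 4.21, so the strongest experiment differed between them. Mcm5, at chr8:75109214-75109661, had 2.93, 3.86 and 4.95 with pileups of 12, 9 and 16 (3.91 ± 1.01). In their leading regions, every fold of Mcm7 was above every fold of Mcm5, but these genes were picked by those folds as highest and lowest. Mcm5 also had an intergenic peak in experiment 2 alone, with a fold of 9.04 and a pileup of 20, 50219 bp from the nearest annotated start. Mcm3 and Mcm4 had no assigned reproducible region and are described below.

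Among the helicase activators, 5 of 6 genes had a reproducible region and 2 of 6 had one in all 3 experiments. The GINS complex joins CDC45 to the MCM ring. Gins2, at chr8:120588986-120589626, had folds of 4.64, 5.02 and 6.45 and pileups of 17, 16 and 28 (5.37 ± 0.95). Gins4, at chr8:23237554-23237983, had 5.06, 3.17 and 3.63 with pileups of 19, 16 and 28 (3.95 ± 0.99), and the 2 genes' folds overlapped. Gins1 had a region in experiments 2 and 3 only, with nearly equal folds of 6.03 and 6.07. Gins3 likewise had 6.18 and 8.71 there. Mcm10, which helps the helicase start, was bound in experiments 1 and 2 only, with 3.71 and 2.96.

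The clamp and its loader were covered in 5 of 6 genes, each in all 3 experiments. Pcna, the sliding clamp, had 2 neighbouring promoter regions in all 3. The first, at chr2:132253046-132253585, had folds of 6.08, 6.18 and 7.69 and pileups of 23, 15 and 28 (6.65 ± 0.90). The other, at chr2:132252497-132252956, had 6.75, 5.69 and 4.97, so neither was the stronger in every experiment. Rfc4, a small subunit of the loader, was lowest at chr16:23127525-23128153, with 5.20, 3.09 and 5.77 and pileups of 17, 7 and 30 (4.69 ± 1.41). Its pileup of 7 in experiment 2 is the smallest that list holds. Rfc3 had 7.46, 4.25 and 4.65 and Rfc5 5.59, 6.46 and 5.67. Rfc1, the large subunit, had 5.0, 6.46 and 7.17 at an inner start. It also had an intron region at chr5:65322157-65322523 in experiments 1 and 3, with folds of 3.55 and 3.56, 13151 bp from the nearest annotated start.

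Lig1 and Fen1, which finish the lagging strand by cutting flaps and sealing nicks, were bound at their promoters in all 3 experiments. Lig1, at chr7:13278336-13278944, had folds of 5.06, 8.11 and 4.47 and pileups of 14, 20 and 23 (5.88 ± 1.96). Fen1, at chr19:10203803-10204429, had 2.89, 4.44 and 2.98 with pileups of 9, 10 and 15 (3.44 ± 0.87), the lowest mean of the 25 genes. Its peaks of experiments 1 and 2 did not overlap each other. The longer peak of experiment 3 joined them, and the summits were spread over 418 bp. In these regions, all 3 folds of Lig1 were above those of Fen1, though only just (4.47 against 4.44), and the genes were picked by those folds. Pold1, the catalytic subunit of polymerase delta, had the region over its start in experiments 2 and 3 only. Its folds there, 2.62 and 10.2, were the least alike of any leading region, with pileups of 11 and 33.

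Of the nucleotide supply genes, both subunits of ribonucleotide reductase were bound in all 3 experiments. Rrm2, the subunit whose level limits the enzyme in S phase, had folds of 4.92, 5.65 and 7.13 at chr12:24708238-24708867, with pileups of 15, 13 and 27 (5.90 ± 1.13). Rrm1 was lower at chr7:102441627-102442011, with 3.04, 3.35 and 4.00 and pileups of 11, 9 and 17 (3.46 ± 0.49). The folds of these 2 leading regions did not overlap, but the genes were picked by those folds as highest and lowest of the role. A further Rrm2 region just upstream was seen in experiments 1 and 3 with 3.47 and 3.31, within the range of Rrm1. Tyms, which makes thymidylate, had 4.20, 3.84 and 3.72, the narrowest spread among these genes' regions in all 3 experiments (SD 0.25).

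Of the regulators of S phase entry, 3 of 5 had a reproducible region outside the promoter class, and Rfc1 was the only other of the 38 genes with one. E2f2, an activator of the E2F family, had 4 reproducible regions, each in all 3 experiments, and 12 regions in all. The leading one, chr4:136174626-136175604, lay 2429 bp downstream of its annotated start, with folds of 5.67, 9.38 and 13.0 and pileups of 27, 27 and 46 (9.34 ± 3.65, SD, n = 3). A region at chr4:136177216-136178471 had 6.95, 9.04 and 8.22 (8.07 ± 1.05). It lay inside the gene at −2312 bp from another annotated start, so the promoter class refers to that start. The region nearest the gene start, chr4:136172848-136173339, was weaker, with 4.30, 6.62 and 3.00. An intron region at chr4:136189895-136190320 had 2.92, 4.69 and 7.16. In each experiment the highest fold of E2f2 was inside the gene and not at its first start.

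Ccne1, which encodes cyclin E1, the partner of CDK2, had its leading region outside the promoter class. It lay in intergenic sequence at chr7:38084856-38085305, 14064 bp from the nearest annotated transcript start and past the end of the gene. Its folds were 5.27, 5.03 and 8.52 with pileups of 25, 20 and 39 (6.27 ± 1.95), and its summits lay within 7 bp of each other. The promoter region of Ccne1, at chr7:38107566-38107911, had lower folds of 2.75, 4.14 and 3.16, also in all 3 experiments. Another region, chr7:38107912-38108148, adjoined it in experiments 2 and 3 with 4.67 and 4.80. Ccne2, cyclin E2, had 1 region at chr4:11191082-11192251 with 4.62, 5.41 and 3.78 and pileups of 12, 13 and 16 (4.60 ± 0.81). Its summits were spread over 677 bp, the widest of the 25 leading regions.

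**Figure D4:**
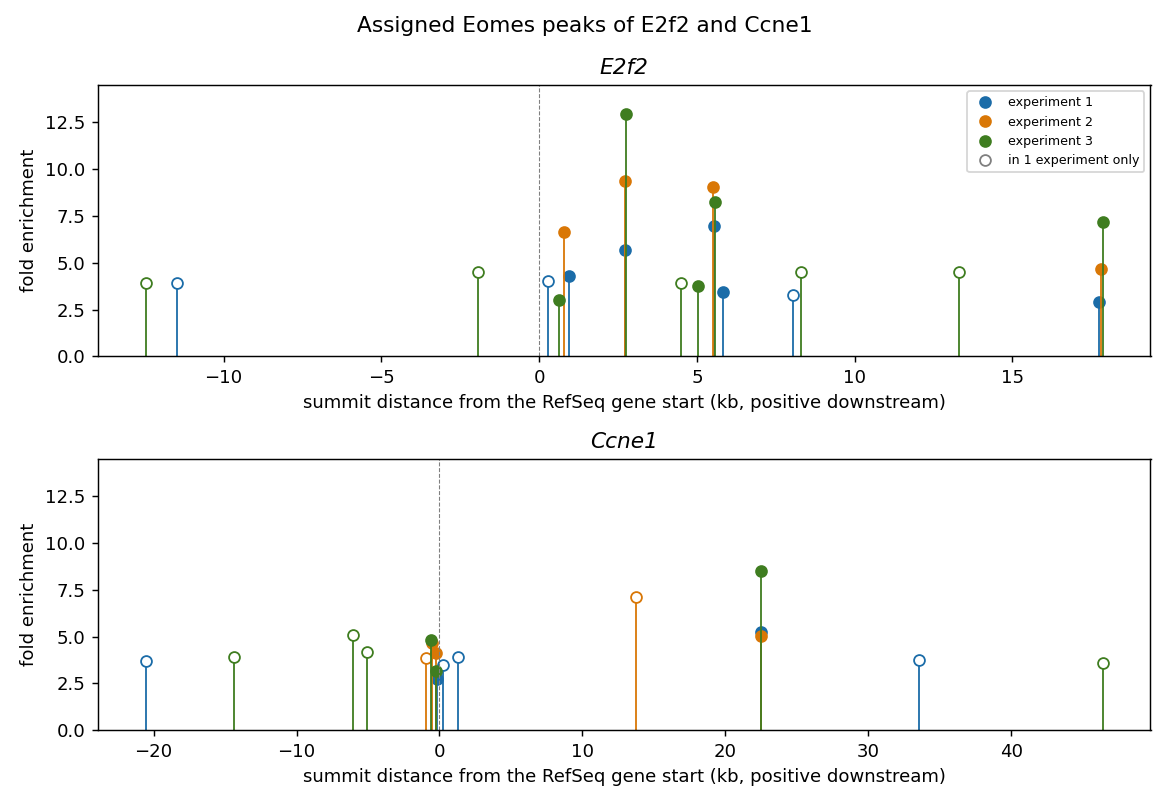
Fold enrichment (y axis) of every peak assigned to E2f2 (top) and Ccne1 (bottom) by the distance of its summit from the RefSeq gene start (x axis, kb, positive downstream). Colours give the experiment and open circles mark peaks of 1 experiment only. The tallest E2f2 peaks of experiment 3 (13.0) and the Ccne1 peak of experiment 3 (8.52) lie downstream of the gene start.

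E2f3, another activator E2F, had 3 reproducible regions. Its leading region at chr13:29983920-29984595 had folds of 4.08, 6.18 and 4.42 and pileups of 11, 15 and 15, at a start inside the gene model. The region over the gene start, chr13:29985792-29986126, was seen in experiments 2 and 3 with 4.41 and 2.80. Its summits lay 21 and 158 bp downstream of that start. An intron region at chr13:29979361-29979575 was seen in experiments 1 and 3 with 5.24 and 4.20. The region over the start of E2f1 was found in experiments 1 and 3 only, with folds of 3.91 and 3.20. In experiment 2, its 1 assigned peak lay elsewhere, at −15561 bp from the start, with a fold of 4.74 and a pileup of 10.

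Both genes of chromatin copying had promoter binding. Chaf1a, the large subunit of the histone chaperone CAF-1, had folds of 4.30, 5.79 and 7.81 and pileups of 13, 14 and 25 at chr17:56040109-56040609 (5.97 ± 1.76). Uhrf1, which brings the maintenance methylase DNMT1 to new DNA, had 9 regions, of which 7 were seen in 1 experiment only. Its 2 reproducible regions were found in experiments 2 and 3 (5.17 and 3.31) and in experiments 1 and 3 (4.64 and 4.14), so none was found in all 3.

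**Figure D5:**
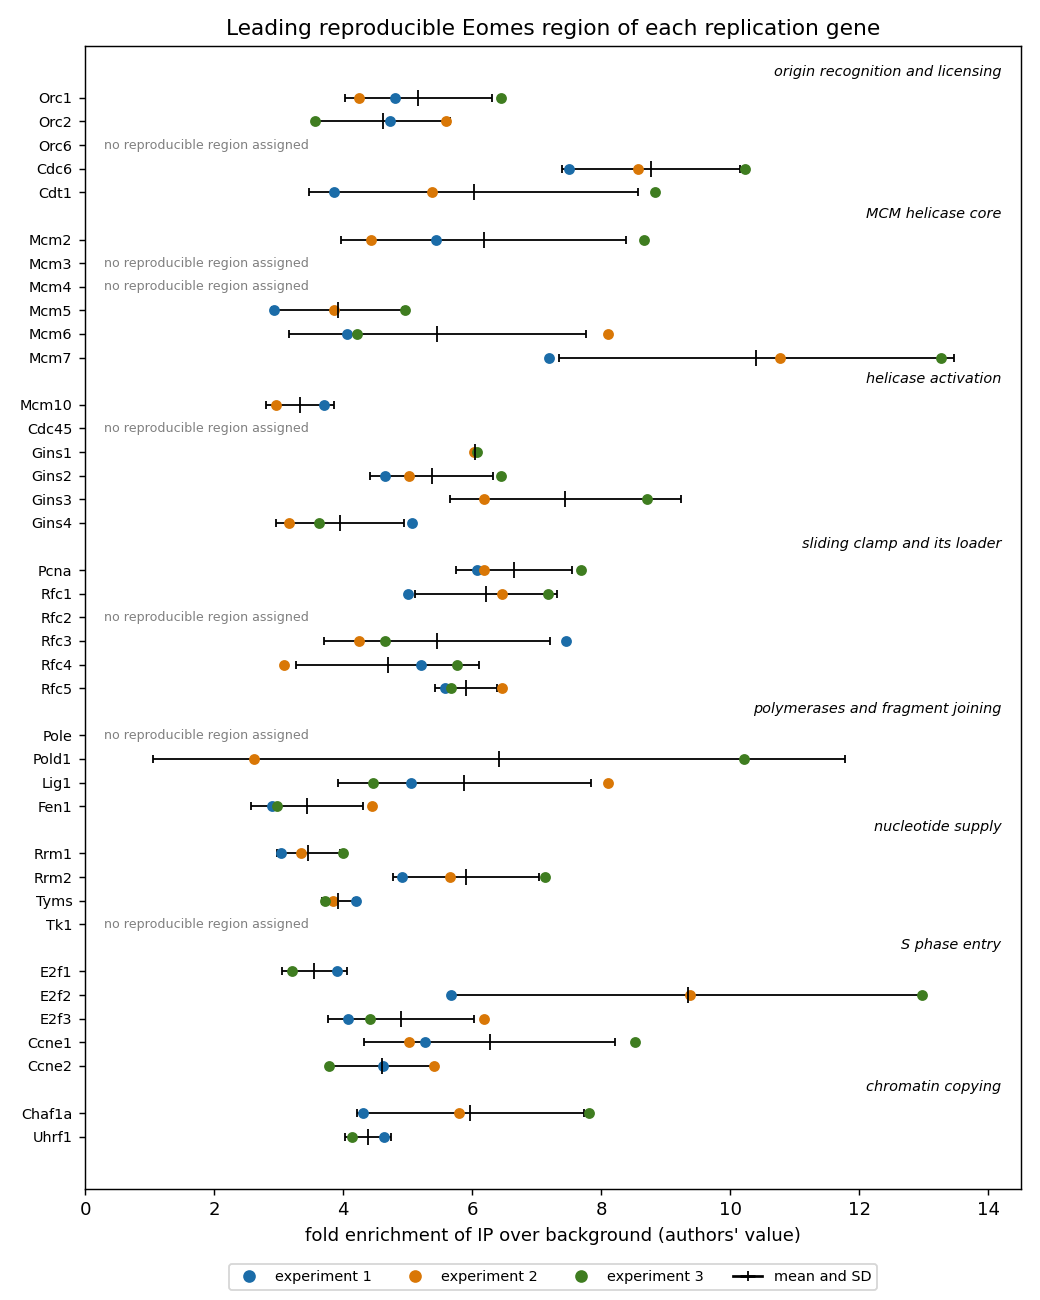
Fold enrichment (x axis, the authors' value) of the leading reproducible region of each of the 38 genes (rows, grouped by role). Points give the experiments and the black bar the mean ± SD over those in which the region was found. Mcm7, E2f2 and Cdc6 reach furthest right (means 10.4, 9.34 and 8.77), and 7 rows have no assigned reproducible region.

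Among the 25 genes with a leading region in all 3 experiments, the folds of the 3 highest by mean did not overlap those of the 5 lowest. The smallest leading fold of Mcm7, E2f2 and Cdc6 in any experiment was 5.67, and the largest of Fen1, Rrm1, Mcm5, Tyms and Gins4 was 5.06. Mcm10 and E2f1, found in 2 experiments, had means of 3.33 and 3.55. The genes compared here were picked by these same folds, so a gap between them follows in part from the choice. With 3 experiments these orders were not tested.

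For 7 genes no reproducible region carried their symbol, namely Orc6, Mcm3, Mcm4, Cdc45, Rfc2, Pole and Tk1. In 4 of these 7 another protein-coding gene starts on the other strand within 1000 bp, against 3 of the 31 genes with a region and 10.8% of all protein-coding genes. Those 3 are Pcna (neighbour Cds2), Fen1 (Tmem258) and Mcm7 (Ap4m1). Of all genes with such a neighbour, 48.1% had a reproducible promoter region. The deposited annotation gives each peak to 1 gene.

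A reproducible region lay near the start of each of these 4 genes and carried the neighbour's symbol. Beside Orc6, a region at chr8:85299174-85299621 was assigned to Vps35, with folds of 3.18, 5.26 and 4.41 in the 3 experiments (4.28 ± 1.04, SD, n = 3). Over the start of Mcm4, chr16:15636978-15637919 was assigned to Prkdc, whose start is 44 bp away, with 2.87, 6.36 and 7.90 (5.71 ± 2.57). Its peaks in experiments 1 and 2 carried the symbol Mcm4, and the top-ranked one, of experiment 3, carried Prkdc. Beside Cdc45, chr16:18812212-18812598 was assigned to Ufd1 in experiments 1 and 3, with 4.05 and 4.33. Within Tk1, chr11:117825593-117826029 was found in experiments 2 and 3, with 4.31 and 4.45, and as a region was assigned to Afmid. Its peak in experiment 2 carried the symbol Tk1, and the top-ranked one, of experiment 3, carried Afmid. Which gene of each pair the binding belongs to cannot be told from the peak lists. The same limit holds at the starts of Pcna, Fen1 and Mcm7, which also have a neighbour starting within 1000 bp on the other strand. Counted by distance alone, 34 of the 38 genes had a reproducible region within 3000 bp of the RefSeq gene start, 26 of them in all 3 experiments, against 42.0% of all genes with a start in the table.

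The other 3 genes had peaks of single experiments only. Mcm3 had 2 exon peaks in experiment 3, both with a fold of 4.20 and a pileup of 13. Rfc2 had 4 peaks that did not overlap, 3 in experiment 1 and 1 in experiment 2, with folds from 3.37 to 4.50. The Rfc2 peak of experiment 2 covered the gene start with a fold of 3.55 and a pileup of 11. Pole, the catalytic subunit of polymerase epsilon, had 1 peak in experiment 1 with a fold of 3.91 and a pileup of 10. These pileups ran from 9 to 13, at or below the median of their list.

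A wider list of 60 other genes of the pathway had a like share of genes with a region in at least 2 experiments. Its share with a region in all 3 experiments was lower. A reproducible region was assigned to 50 (83.3%, Wilson 72.0 to 90.7%), against 81.6% of the replication genes and 43.6% of all protein-coding genes. For 48 it was at a promoter, against 37.2% of all genes. For 31 it was in all 3 experiments (51.7%), against 65.8% of the replication genes and 28.8% of all genes. By role, a reproducible region was assigned to 11 of 14 licensing and firing genes and 15 of 19 polymerase and fork genes. The same held for 6 of 8 nucleotide genes, 6 of 6 chromatin genes and 12 of 13 S phase regulators. Pold3, a small subunit of polymerase delta, had the highest leading fold, with 16.8, 11.4 and 9.60 (12.6 ± 3.74). Tfdp1, the dimer partner of E2F proteins, followed with 9.52, 5.91 and 10.2 at a site of the intron class. The site lay upstream of Tfdp1, at −22599 bp from its start, so the intron is outside the RefSeq span of Tfdp1. Orc5 had 5.58, 9.76 and 8.73. Mtbp, which acts in origin firing, had 4.79, 7.34 and 11.0. Rbl1, which encodes the E2F repressor p107, had 5.78, 5.02 and 11.4. These 5 are the highest mean folds among the 31 genes bound in all 3 experiments. No peak was assigned to Orc3 or Prim1, and a reproducible region near the start of Orc3 carried the symbol Rars2.

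Mitosis genes, a later cell cycle program, had fewer genes with a peak in 2 of the 3 experiments. A reproducible region was assigned to 22 of 38 (57.9%, Wilson 42.2 to 72.1%), against 43.6% of all protein-coding genes. For 21 it was at a promoter (55.3% against 37.2%), and for 13 it was in all 3 experiments (34.2% against 28.8%). By experiment, 24, 23 and 34 of 38 had an assigned peak, against 32, 34 and 31 of the replication genes. The order of the 2 groups was thus opposite in experiment 3. Among all protein-coding genes, 54.1%, 54.0% and 60.1% had an assigned peak. The median leading fold of the 13 was 4.88, against 5.46 for the 25 replication genes and 5.88 for the 6298 protein-coding genes with such a region. Whether the lists differ from each other or from all genes was not tested.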

How the data were processed

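Chromatin immunoprecipitation libraries (3) and input libraries (3) were represented by 3 deposited peak lists, so each experiment had its own peak calls and none came from pooled libraries. The submitters' processing notes name mm10, Novoalign and ChIPseeker, while the sources used here name no peak caller or settings. Per the file headers, each peak carries a pileup (a signal value, whole numbers), a fold enrichment (a ratio) and −log10 p-values and q-values, all the authors' own. The lowest deposited −log10 q-value was 1.31, and depth is unknown. From these, repeated rows of an interval were collapsed to the one with the highest −log10 q-value. Intervals sharing at least 1 bp were merged, and a region took the symbol and class of its highest-ranked peak. The merging was tested on simulated data and gave 20126 reproducible regions, as bedtools 2.31.1 did. Symbols, or synonyms that were unique, were looked up in RefSeq (GRCm38.p6; 21887 protein-coding genes), and distances by start used the 20656 with a start. Coordinates are printed as deposited. Python 3.11.15 with pandas 2.3.3, scipy 1.17.1 and matplotlib 3.10.9 was used. The members and gene lists were chosen with earlier results of these data known, so counts stand beside the share over all genes and no test was made. Values are given in full for the highest and lowest leading fold of each role, for genes with no reproducible region, at least 3, or one outside promoters, and for the 5 highest of the wider list. Genes named outside this rule were chosen after their values were seen. Alternatives were stricter peaks, other overlaps, other gene assignment, a promoter of 1000 bp and leaving out each experiment.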

Additional observations from a re-analysis of the deposited data

How the results depend on the processing

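The 5 counts stayed within 1.5 times of their reported values in all 39 comparisons, each of 1 count under 1 alternative setting. These are not independent. By distance to the gene start, the promoter count equals the region count by construction. With an experiment left out, the count for all 3 experiments becomes that for both remaining lists. Genes with a reproducible region numbered 28 (73.7%, against 41.1% of all protein-coding genes) with a −log10 q-value of at least 2, and 25 (65.8% against 35.6%) with at least 3. They numbered 30 (78.9% against 42.1%) with at least 50% of the shorter peak overlapped, 33 (86.8% against 44.8%) with every symbol of a region counted and 34 by distance to the gene start. Without experiment 1, 2 or 3, they numbered 29, 27 and 26 (76.3%, 71.1% and 68.4%, against 36.6%, 35.3% and 30.4% of all genes), and reproducible regions 31 to 38. With peaks taken by pileup, 15 of 18 leading folds of named genes were identical, while E2f3 had 4.47, Rfc1 5.77 and Rrm1 3.40. Means of 2 of the 3 experiments were also computed, but cannot move by 1 SD and say nothing of stability. Leaving out experiment 1 lost E2f1 and Mcm10, and experiment 2 lost Gins1, Gins3, Mcm10 and Pold1. Leaving out experiment 3 lost E2f1, Fen1, Gins1, Gins3, Pold1 and Uhrf1 and gained Mcm4. Genes with no peak numbered 2 or 3 throughout. The smallest pileups of 7 to 9 limit what could be seen, and a gene with no peak may be bound below them. No paired analysis was possible because each peak list already sets an IP library against the input of its own experiment and holds no separate input values.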
